A study of Mus musculus with 36 samples.

Results

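A group of 8 long noncoding RNAs was followed across the LPS response of mouse bone marrow-derived macrophages: the microRNA hosts Mir155hg and Mir22hg, the nuclear RNAs Neat1 and Malat1, and the small nucleolar RNA (snoRNA) hosts Gas5, Snhg1, Snhg5 and Snhg12. They were chosen by name, with earlier results of these data known. All 8 were found by their Ensembl identifiers among the 54232 genes of the count files and passed the filter on low counts. The cells had been grown from bone marrow for 5 days with 20 ng/mL of the macrophage growth factor M-CSF. The 6 groups held 6 libraries each: cells labelled WT or NOS1 KO, each untreated (control) or given 100 ng/mL LPS, a bacterial cell wall product that activates macrophages, for 2 h or 8 h. In replicate 6 of every group the genotype label reads BMDM WT or BMDM NOS1 KO. These libraries were counted as WT and NOS1 KO. The design text gives the WT strain as C65BL6 and names no strain for the NOS1 KO. How the knockout was made, the age of the animals, and whether libraries of a group came from separate animals or cultures, were not given in the sources used here. As a result, p-values measure the spread between libraries, which may be technical. In such bulk libraries, fewer cells with a transcript and less of it per cell cannot be told apart.

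A host RNA is a transcript that carries a smaller functional RNA inside it. Drosha and Dicer cut a microRNA hairpin out of its host, and the mature microRNA then pairs through its seed, bases 2 to 8, with messenger RNAs and lowers their output. The snoRNAs lie in introns of their hosts and guide chemical modification of ribosomal RNA, and the spliced hosts, which begin with a run of pyrimidines, are short-lived because translating ribosomes expose them to nonsense-mediated decay. Neat1 is the scaffold of nuclear paraspeckles and Malat1 is an abundant RNA of nuclear speckles, where splicing factors gather. In macrophages miR-155 is known as a microRNA induced by Toll-like receptors, acting on Socs1 and Inpp5d among other targets.

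Mir155hg (ENSMUSG00000097418) lies on mm10 chromosome 16, from 84703167 to 84715245 on the plus strand, and Mir22hg (ENSMUSG00000085148) on chromosome 11, from 75461539 to 75466676 on the plus strand. Both hairpins sit in exon 2 of their annotated hosts. The mature microRNAs are shown because they are the products that give these hosts their names, as listed by RefSeq for GRCm38.p6, with the seed in capitals and the positions of the mature strands at chr16:84714143-84714165, chr16:84714182-84714202, chr11:75463734-75463755 and chr11:75463772-75463793.
mmu-miR-155-5p: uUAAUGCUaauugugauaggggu
mmu-miR-155-3p: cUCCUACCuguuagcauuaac
mmu-miR-22-5p: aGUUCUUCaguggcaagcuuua
mmu-miR-22-3p: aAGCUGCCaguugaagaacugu
The 4 seeds differ from each other, and each belonged to 1 mature entry of the table. The microRNAs themselves were not measured: the 2 microRNA genes and 25 snoRNA genes inside the members' exons as annotated had 0 counts in all 36 libraries. The values below are therefore levels of host transcripts.

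The snoRNA hosts are shown at their RefSeq starts because the 4 moved together at 8 h. Capitals mark the longest unbroken run of C and T that touches the bases around the start, in windows at chr1:161034586-161034625 and chr1:161035151-161035190 (Gas5, plus strand), chr19:8723472-8723511 (Snhg1, plus), chr9:88522873-88522912 (Snhg5, minus) and chr4:132308663-132308702 (Snhg12, plus) of GRCm38.p6.
Gas5, upstream start: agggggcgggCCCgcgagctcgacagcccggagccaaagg
Gas5, downstream start: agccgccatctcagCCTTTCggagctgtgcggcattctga
Snhg1: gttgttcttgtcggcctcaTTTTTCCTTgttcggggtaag
Snhg5: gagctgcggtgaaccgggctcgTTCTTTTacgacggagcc
Snhg12: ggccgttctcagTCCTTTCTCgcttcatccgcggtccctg
The run was 9 bases long in Snhg1 and Snhg12, a length reached in 9.75% of all RefSeq promoters, 7 in Snhg5 (20.2% of promoters) and 6 at the downstream start of Gas5 (30%). At the upstream start of Gas5 the run had 3 bases, which 83.9% of promoters reach. These runs describe the letters of the windows and were not tested against expression. Promoter windows were listed for 7 of the 8 members. None of them held the consensus of NF-kB or the AP-1 sequence TGANTCA on either strand, motifs held by 4.51% and 7.81% of 32851 promoter windows. For Mir155hg the RefSeq start lies inside the gene as annotated by GENCODE, so that window is not the only candidate promoter.

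Library totals ran from 8953489 to 18482551 counts. All 11 macrophage markers of the list were detected, with a summed level of 13178 to 23946 CPM (counts scaled to the effective size of each library). Nos1 went against the genotype label. Its level was 0.0649 ± 0.0987 CPM (SD, n = 6) in the controls labelled WT but 4.16 ± 1.04 CPM in those labelled KO, so genotype is given here as the label reads. Libraries of every group fell into unlabelled sets found from the counts with the members left out: replicates 1, 2 and 6 form set A, and replicates 3, 4 and 5 form set B. A component holding 34.6% of the variance within groups separated them. Because these same libraries define the sets, p-values of fits that use the sets are not independent of the split. Skeletal muscle markers, all 18 of them detected, summed to over 100 CPM in 4 libraries, replicates 5 and 6 of WT-labelled cells at 2 h and at 8 h, and reached 5313 CPM. Neutrophil markers (12 of 12 detected) summed to 70.8 to 243 CPM in WT-labelled controls and 290 to 595 CPM at 8 h, and to 94.6 to 159 and 274.5 to 455 CPM in KO-labelled cells. Of 11 tested neutrophil markers, 1 was higher and 2 lower at 8 h under the WT label (median log2 change -0.31), and 1 higher and 0 lower under the KO label (median -0.11). Dendritic cell markers (11 of 11) went from 146 to 236 CPM in WT-labelled controls to 815 to 963 CPM at 8 h, and in KO-labelled cells from a median of 296 CPM (lowest 155) to 775 to 1263 CPM. Of 9 tested, 4 were higher and 0 lower at 8 h under the WT label, and 5 higher and 0 lower under the KO label. Stromal markers (13 of 13) summed to 49.0 to 84.7 CPM in WT-labelled controls and 63.3 to 305 CPM at 8 h, where 7 of 10 tested were higher and 0 lower, and to 32.5 to 78.7 and 62.5 to 107 CPM in KO-labelled cells, with 5 of 10 higher and 0 lower. Endothelial markers (6 of 6) summed to 96.3 to 156 and 125 to 196 CPM in WT-labelled cells and to 92.8 to 190.0 and 140.3 to 237 CPM in KO-labelled cells, with 3 of 4 tested higher and 1 lower at 8 h under both labels. Of the 15 T and NK cell markers, Cd3e, Gzma, Ncr1 and Trbc1 were at 0 in every library. The list as a whole summed to 146.7 to 212.5 CPM in WT-labelled controls and 72.2 to 123.9 CPM at 8 h. In KO-labelled cells it summed to 137.2 to 274.4 and 87.2 to 171.8 CPM. Of 3 tested, 2 were lower and 0 higher at 8 h under both labels. The part of these cells in the members' values was not tested.

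LPS raised the microRNA hosts and lowered the snoRNA hosts. At 2 h, 2 of the 8 members passed the test in WT-labelled cells and 2 in KO-labelled cells, Mir155hg upward and Gas5 downward in both, where 37.9% (20.3% higher, 17.7% lower) and 35.3% (18.9% higher, 16.4% lower) of the 12957 genes tested were called (edgeR's quasi-likelihood test, Benjamini-Hochberg adjusted p below 0.05). At 8 h, 6 of 8 passed in each label, Mir155hg and Mir22hg upward and the 4 snoRNA hosts downward, where 71.2% (34.2% higher, 37% lower) and 72.1% (34.9% higher, 37.2% lower) of all genes were called, so the number of members called is near the background and only their direction and size are described here. Both times were compared with the same control libraries, and their values stand side by side without being independent. From 2 h to 8 h, 4 members fell in WT-labelled cells, all of them snoRNA hosts (background 62.8%, with 30% higher and 32.8% lower), and 6 fell in KO-labelled cells, the snoRNA hosts with Neat1 and Malat1 (background 65.2%, with 31.5% higher and 33.7% lower). The median log2 change of the 8 members was -0.70 in WT-labelled and -0.79 in KO-labelled cells at 8 h, beside -0.06 for all genes in both.

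Per kilobase of annotated exon, the order of the members changed with LPS. In WT-labelled controls the mean levels were 37.9 CPM per kb for Neat1, 29.5 for Mir22hg, 16.9 for Malat1, 13.0 for Gas5, 8.37 for Snhg5, 5.46 for Snhg1, 2.15 for Snhg12 and 0.0460 for Mir155hg. After 8 h of LPS Mir155hg stood first with 86.4 CPM per kb, before Mir22hg with 60.6, Neat1 with 32.3, Malat1 with 16.6, Gas5 with 5.75, Snhg5 with 2.45, Snhg1 with 1.31 and Snhg12 with 0.686. The length used is the union of all annotated exons, 1433 bases in Mir155hg and 20771 in Neat1, which exceeds the length of most single transcripts. The labels give total RNA, and whether polyadenylated RNA was selected was not given in the sources used here, and Malat1 and the long form of Neat1 lack a normal poly(A) tail.

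Mir155hg, the host of miR-155, went from almost no reads to one of the largest changes of all genes. The 6 WT-labelled control libraries held 6 counts in all and the 6 KO-labelled ones 5, between 0 and 3 per library. At 2 h the WT-labelled libraries held 1220 to 2095 counts and ranged from 84.8 to 149 CPM with a median of 99.8, and the KO-labelled ones ranged from 70.7 to 144 CPM with a median of 97.8. At 8 h the range was 108 to 142 CPM (median 124) under the WT label and 70.2 to 116 CPM (median 101) under the KO label. Every LPS library lay above every control library, and the share of all genes separated in this way was not computed. The ratio of pooled levels was 1531 at 2 h in WT-labelled cells (95% exact Clopper-Pearson interval 703 to 4174) and 1833 at 8 h (842 to 4996), and 1810 (775 to 5577) and 1733 (742 to 5340) in KO-labelled cells. These intervals cover counting error only and are wide because of the few control reads. The fitted log2 fold changes, which depend on the prior count, were 10.42 and 10.63 under the WT label and 10.62 and 10.53 under the KO label, with adjusted p = 3.56e-23, 7.66e-24, 4.18e-23 and 1.73e-23 (edgeR). By size of change among 12957 genes, Mir155hg ranked 3 and 18 in WT-labelled cells at 2 h and 8 h. In KO-labelled cells it ranked 1 and 9. With 0 to 3 counts per control library, Mir155hg passed the count filter only through its LPS libraries. A gene admitted in that way has a large change by selection. The ranks and adjusted p-values therefore describe the change and are no separate evidence for it.

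The level of Mir155hg did not pass the test between 2 h and 8 h, with a log2 difference of 0.21 ± 0.18 (SE, adjusted p = 0.303, edgeR) under the WT label and -0.08 ± 0.18 (adjusted p = 0.700) under the KO label. The library sets differed here. At 2 h set A stood at 128 ± 18.5 CPM (SD, n = 3) and set B at 85.8 ± 0.860 CPM in WT-labelled cells, and at 131 ± 14.9 and 77.6 ± 5.91 CPM in KO-labelled cells, with no overlap in either. At 8 h set B was the higher under the WT label, with 135 ± 6.87 against 112 ± 6.24 CPM, and had the lower mean under the KO label, with 90.7 ± 17.8 against 106 ± 14.2 CPM. Within set A alone the difference from 2 h to 8 h was -0.19 (adjusted p = 0.323, edgeR) under the WT label and -0.30 (adjusted p = 0.113) under the KO label. Within set B alone the rise from 2 h to 8 h was 0.67 (adjusted p = 5.00e-07, edgeR) under the WT label and 0.23 (adjusted p = 0.0381) under the KO label, where the pooled value was negative. The 3 genes most like Mir155hg over the 36 libraries were Nfkbia, the inhibitor of NF-kB, with Pearson r of 0.996, the cytokine Tnf with 0.994 and Ccrl2, a chemokine receptor-like protein, with 0.994. These correlations follow the difference between control and LPS libraries, which share scaling and depth.

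Mir22hg, the host of miR-22, was present in all libraries and was higher after LPS. WT-labelled controls ranged from 18.8 to 96.2 CPM with a median of 56.6, the 2 h libraries from 56.7 to 128 (median 80.8) and the 8 h libraries from 95.2 to 159 (median 114). KO-labelled controls ranged from 19.1 to 72.4 CPM (median 47.3), the 2 h libraries from 39.9 to 135 (median 83.8) and the 8 h libraries from 52.5 to 115 (median 93.6). The groups overlapped in every comparison, since the 3 set B libraries of each group lay below its 3 set A libraries. The pooled log2 change at 8 h was 1.04 ± 0.39 (SE, adjusted p = 0.0175, edgeR) under the WT label and 0.98 ± 0.39 (adjusted p = 0.0252) under the KO label. At 2 h it was 0.61 ± 0.39 (adjusted p = 0.224) and 0.90 ± 0.39 (adjusted p = 0.0694), which did not pass. With the library set as a term both 2 h values passed, at 0.76 (adjusted p = 0.00156) and 0.90 (adjusted p = 0.000261, edgeR), but the sets were found from these same libraries. The KO-labelled call at 8 h was lost when control replicate 3, 4 or 5 was left out, with log2 changes of 0.81, 0.82 and 0.89 and adjusted p from 0.0550 to 0.0669. The KO-labelled value at 2 h passed, at 1.03 to 1.07, when control replicate 2 or 6 or 2 h replicate 3, 4 or 5 was left out. Scaled by library totals alone, the 8 h rise was 0.25 (adjusted p = 0.535) and 0.14 (adjusted p = 0.737), and the direction held. An annotated exon of Tlcd2 overlaps 206 bases of Mir22hg on the same strand, so some reads may have been assigned to neither or to either gene.

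**Figure D1:**
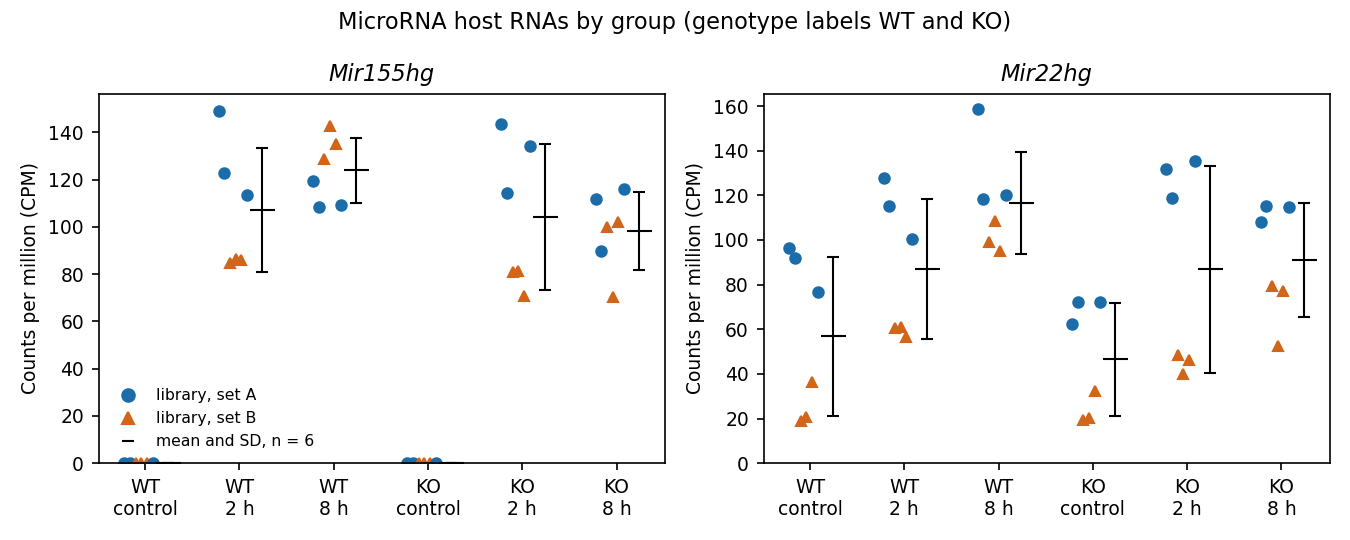
Levels of the microRNA hosts Mir155hg and Mir22hg in CPM (vertical axis, linear) in each of the 36 libraries, by genotype label and treatment; circles are set A and triangles set B libraries, and the black bar is the mean with its SD (n = 6). Mir155hg lies at 0 to 0.208 CPM in all control libraries and between 70.2 and 149 CPM in all LPS libraries, and for Mir22hg the triangles lie below the circles in every group.

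Neat1, the paraspeckle scaffold, was widely spread within groups, with a coefficient of variation from 6.85% in WT-labelled 8 h libraries to 46.4% in KO-labelled 8 h libraries. WT-labelled controls ranged from 354 to 1287 CPM with a median of 816, the 2 h libraries from 586 to 1020 (median 816) and the 8 h libraries from 603 to 731 (median 681). KO-labelled controls ranged from 337 to 1102 CPM (median 604), the 2 h libraries from 571 to 1212 (median 747) and the 8 h libraries from 230 to 856 (median 536). The highest control library was replicate 5 under both labels, and all groups overlapped. No LPS time differed from its control: the log2 changes were 0.03 ± 0.28 and -0.23 ± 0.28 (SE) at 2 h and 8 h under the WT label and 0.40 ± 0.28 and -0.23 ± 0.28 under the KO label, with adjusted p from 0.296 to 0.947 (edgeR). The fall from 2 h to 8 h in KO-labelled cells, by 0.63 ± 0.28 on the log2 scale, passed by a small margin (adjusted p = 0.0468, edgeR). That call was lost when any of 17 of the 36 libraries was left out. They were KO-labelled 2 h replicates 1 and 6 and 8 h replicates 3, 4 and 5 (log2 differences of -0.52, -0.52, -0.55, -0.47 and -0.54, adjusted p from 0.104 to 0.130), and KO-labelled control replicates 3 and 6, WT-labelled control replicate 6, WT-labelled 2 h replicates 3, 4, 5 and 6 and WT-labelled 8 h replicates 1, 2, 3, 4 and 6, at -0.63 and adjusted p of up to 0.0508. The call was also lost with only the compared groups, at -0.65 (adjusted p = 0.0759, edgeR), and in set A alone, at -0.44 (adjusted p = 0.131). Without the libraries labelled BMDM it was lost at -0.68 (adjusted p = 0.0606), and without those with muscle markers at -0.63 (adjusted p = 0.0628). Within set A of KO-labelled cells Neat1 rose by 0.88 at 2 h (adjusted p = 0.00925, edgeR), and within set B it fell by 1.14 at 8 h (adjusted p = 0.00164).

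Malat1, the nuclear speckle RNA, changed little under TMM scaling. WT-labelled controls ranged from 62.6 to 157 CPM with a median of 129, the 2 h libraries from 114 to 298 (median 133) and the 8 h libraries from 112 to 124 (median 115). KO-labelled controls ranged from 69.8 to 207 CPM (median 138), the 2 h libraries from 117 to 186 (median 136) and the 8 h libraries from 80.8 to 111 (median 98.9). The 8 h libraries were the least scattered, with a coefficient of variation of 3.51% under the WT label against 32.9% in its controls. All KO-labelled 8 h libraries lay below all KO-labelled 2 h libraries, and how many of all genes separate in this way was not computed. The log2 difference was -0.58 ± 0.24 (SE, adjusted p = 0.0311, edgeR), which passed. This call was lost without KO-labelled 2 h replicate 1 or 6 or 8 h replicate 3, 4 or 5, at -0.50, -0.52, -0.55, -0.53 and -0.56 (adjusted p from 0.0535 to 0.0769). It was also lost without the libraries labelled BMDM, at -0.56 (adjusted p = 0.0569, edgeR). The same comparison under the WT label gave -0.47 ± 0.23 (adjusted p = 0.0820), and passed at -0.55 (adjusted p = 0.0494) without 2 h replicate 5. Against control at 8 h the KO-labelled value of -0.42 ± 0.24 (adjusted p = 0.105) passed at -0.54 or -0.55 when control replicate 3 or 4 was left out. With the library set as a term, Malat1 was called higher at 2 h under the WT label, at 0.45 (adjusted p = 0.0243, edgeR), and lower at 8 h under the KO label, at -0.37 (adjusted p = 0.0433). A predicted transcript on the opposite strand covers 453 bases of Malat1, and the strand setting of the counting was not given in the sources used here.

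Neat1 and Malat1 depended on the scaling. With library totals alone in place of TMM, the median log2 change of all genes shifted from -0.06 to -0.83 at 8 h under the WT label and from -0.06 to -0.88 under the KO label, and from -0.02 to -0.32 and from -0.01 to -0.31 at 2 h. Of the genes called at 8 h, 48% were higher with TMM and 19.9% with library totals under the WT label, and 48.5% and 19.5% under the KO label; at 2 h the shares were 53.4% and 20.7%, and 53.5% and 20.3%. On library totals Neat1 was called lower at 8 h, at -1.01 and -1.07, and so was Malat1, at -0.80 and -1.26.

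**Figure D2:**
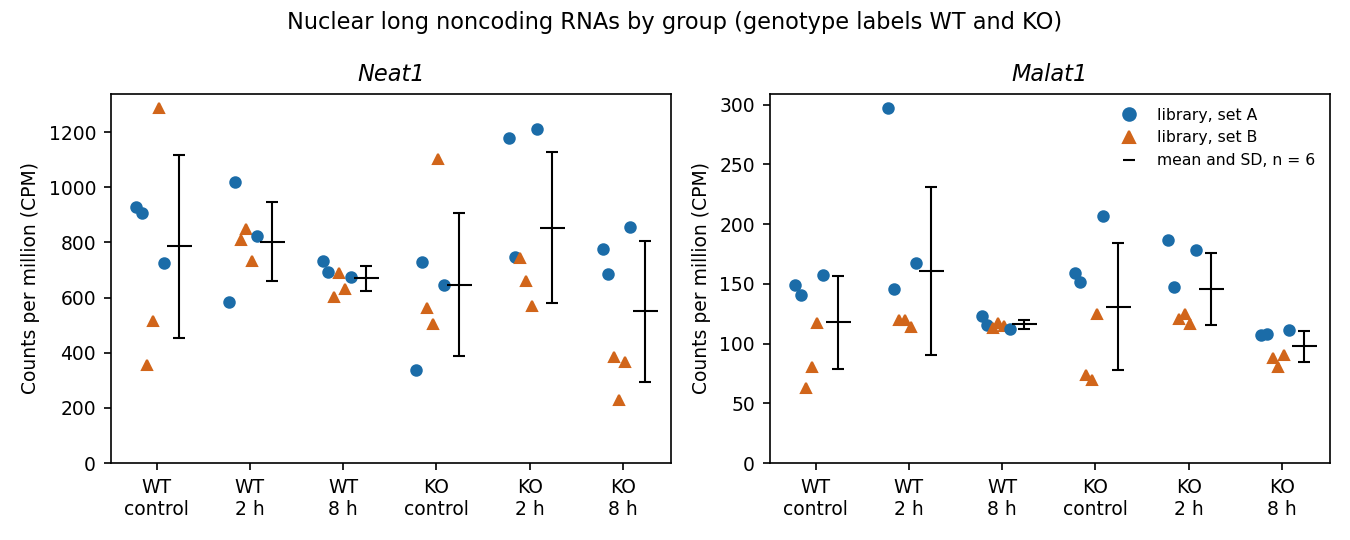
Levels of Neat1 and Malat1 in CPM (vertical axis, linear) in each of the 36 libraries, by genotype label and treatment, with circles for set A, triangles for set B and a black bar for the mean with its SD (n = 6). The groups overlap for Neat1, whose highest control is a set B library under both labels, and 1 WT-labelled 2 h library of Malat1 stands at 298 CPM above the rest of its group.

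Gas5, which hosts 10 annotated snoRNA genes (ENSMUSG00000053332, mm10 chromosome 1, 161034422 to 161038539, plus strand), was the member called lower at both times and in both labels. WT-labelled controls ranged from 39.5 to 65.4 CPM with a median of 46.5, the 2 h libraries from 32.1 to 41.2 (median 39.2) and the 8 h libraries from 18.4 to 25.9 (median 21.4). KO-labelled controls ranged from 41.8 to 53.3 CPM (median 45.3), the 2 h libraries from 34.8 to 39.6 (median 37.7) and the 8 h libraries from 16.8 to 26.3 (median 20.3). The 8 h libraries lay below all controls and all 2 h libraries under both labels, and the 2 h libraries below all controls under the KO label. How many of all genes separate in this way was not computed, here or in other comparisons of groups or sets for any member. The log2 change of Gas5 was -0.36 ± 0.11 (SE, adjusted p = 0.00891, edgeR) at 2 h and -1.18 ± 0.11 (adjusted p = 3.04e-11) at 8 h under the WT label, and -0.31 ± 0.11 (adjusted p = 0.0256) and -1.16 ± 0.11 (adjusted p = 4.18e-11) under the KO label. Without the 4 libraries with muscle markers the WT-labelled 2 h value was -0.31 (adjusted p = 0.0572, edgeR), and in set B alone it was -0.15 (adjusted p = 0.119). The KO-labelled 2 h call was lost without control replicate 2 or 5 or 2 h replicate 6, at -0.27, -0.29 and -0.29 (adjusted p from 0.0551 to 0.0720). It was also lost without a count filter, at -0.29 (adjusted p = 0.0878, edgeR), and in set A alone, at -0.35 (adjusted p = 0.101).

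Snhg1, which hosts 8 annotated snoRNA genes (ENSMUSG00000108414, chromosome 19, 8723475 to 8726443, plus strand), had the largest fall of the 8 members at 8 h under both labels. It ranged from 12.2 to 19.5 CPM in WT-labelled controls (median 16.3), from 6.58 to 16.9 at 2 h (median 14.0) and from 1.81 to 4.91 at 8 h (median 4.41). In KO-labelled cells it ranged from 8.59 to 18.1 CPM (median 17.0), from 5.72 to 16.6 (median 12.4) and from 2.54 to 3.97 (median 3.28). The 8 h libraries lay below all others of their label. The log2 change at 8 h was -2.04 ± 0.25 (SE, adjusted p = 7.06e-09, edgeR) and -2.18 ± 0.25 (adjusted p = 2.30e-09), and at 2 h it was -0.33 ± 0.23 (adjusted p = 0.266) and -0.28 ± 0.23 (adjusted p = 0.386). The 8 h libraries held 12 to 50 counts of Snhg1, which limits the precision of single values.

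Snhg5, host of 2 annotated snoRNA genes (ENSMUSG00000097195, chromosome 9, 88521050 to 88522929, minus strand), and Snhg12, host of 5 (ENSMUSG00000086290, chromosome 4, 132308623 to 132311024, plus strand), followed the same course. Snhg5 ranged from 10.3 to 21.3 CPM in WT-labelled controls (median 13.2), from 6.66 to 14.6 at 2 h (median 13.3) and from 3.16 to 5.52 at 8 h (median 4.15). Under the KO label its ranges were 7.98 to 14.8 CPM (median 10.6), 7.48 to 11.99 (median 10.6) and 2.59 to 3.99 (median 2.93). The 8 h libraries again lay below all others of their label, and the log2 changes at 8 h were -1.76 ± 0.20 (SE, adjusted p = 1.66e-09, edgeR) and -1.81 ± 0.21 (adjusted p = 1.43e-09). Snhg12 ranged from 3.99 to 6.81 CPM in WT-labelled controls (median 5.15), from 3.59 to 5.41 at 2 h (median 4.24) and from 0.922 to 2.28 at 8 h (median 1.72). Its KO-labelled ranges were 3.01 to 7.70 CPM (median 5.82), 2.59 to 5.80 (median 4.77) and 0.803 to 1.99 (median 1.36). Here too no 8 h library reached the controls or the 2 h libraries, and the log2 changes at 8 h were -1.63 ± 0.24 (SE, adjusted p = 3.12e-07, edgeR) and -2.07 ± 0.25 (adjusted p = 3.86e-09). At 2 h neither passed, with -0.32 ± 0.19 and -0.15 ± 0.19 for Snhg5 and -0.27 ± 0.22 and -0.35 ± 0.22 for Snhg12.

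**Figure D3:**
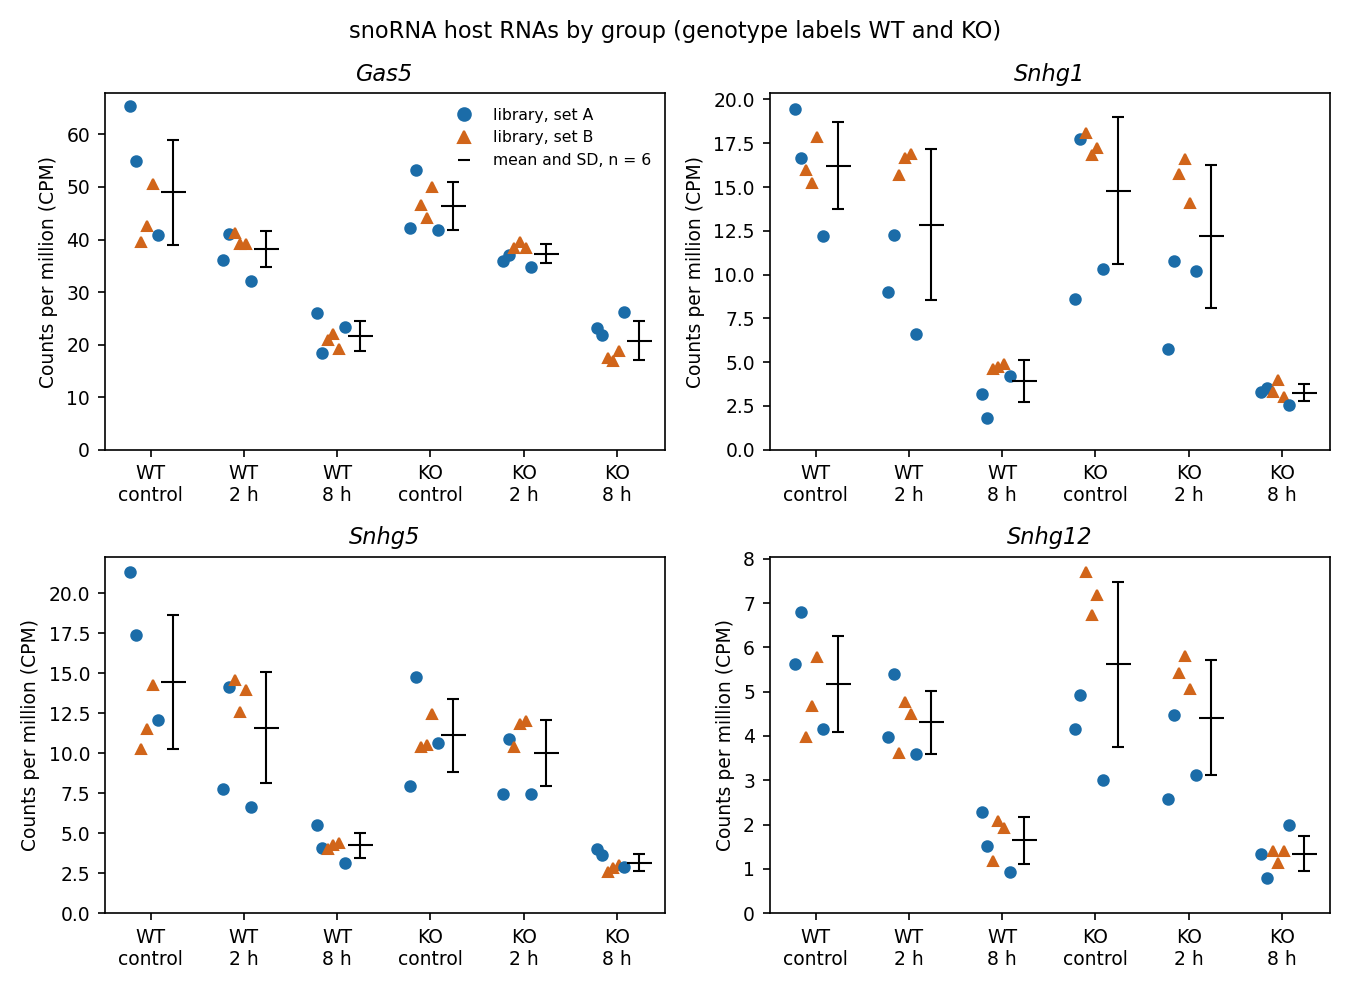
Levels of the snoRNA hosts Gas5, Snhg1, Snhg5 and Snhg12 in CPM (vertical axis, linear) in each of the 36 libraries, by genotype label and treatment, with circles for set A, triangles for set B and a black bar for the mean with its SD (n = 6). In every panel the 8 h libraries lie below the control and 2 h libraries of their label, from 16.8 to 26.3 CPM for Gas5 and from 1.81 to 4.91 CPM for Snhg1. The share of all genes separated in this way was not computed.

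Over the 36 libraries the log2 CPM of the 4 snoRNA hosts ran in parallel, with Pearson r between 0.895 and 0.942 for their 6 pairs. After each group's mean was subtracted, r lay between 0.350 and 0.688, so part of the likeness is the difference between groups. Mir22hg and Malat1, in contrast, had r of 0.608 over all libraries and 0.875 after subtraction of group means. These are descriptions over libraries that share scaling, depth and the library sets. The genes most like Gas5 were Samd1 (r of 0.957), Tmem250-ps and Trim47 (both 0.953). For Snhg1 they were Nup85, a nuclear pore protein (0.972), Rcc1, the exchange factor of Ran (0.968), and Ndufaf4, an assembly factor of respiratory complex I (0.967). For Snhg5 they were the heme enzyme Alad (0.955), the mitochondrial import chaperone Timm9 (0.948) and Wdr77 (0.946), and for Snhg12 they included Timm9 (0.928) and Tnfrsf22 (0.927). Those of Mir22hg were Tcf25 (0.931), Prr13 and the tubulin cofactor Tbce (both 0.920), those of Malat1 were Trim3 (0.875), Mbd6 (0.858) and the splicing factor Srsf11 (0.857), and those of Neat1 were Xrcc3 (0.712), Ttc14 (0.684) and Npepl1 (0.679).

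**Figure D4:**
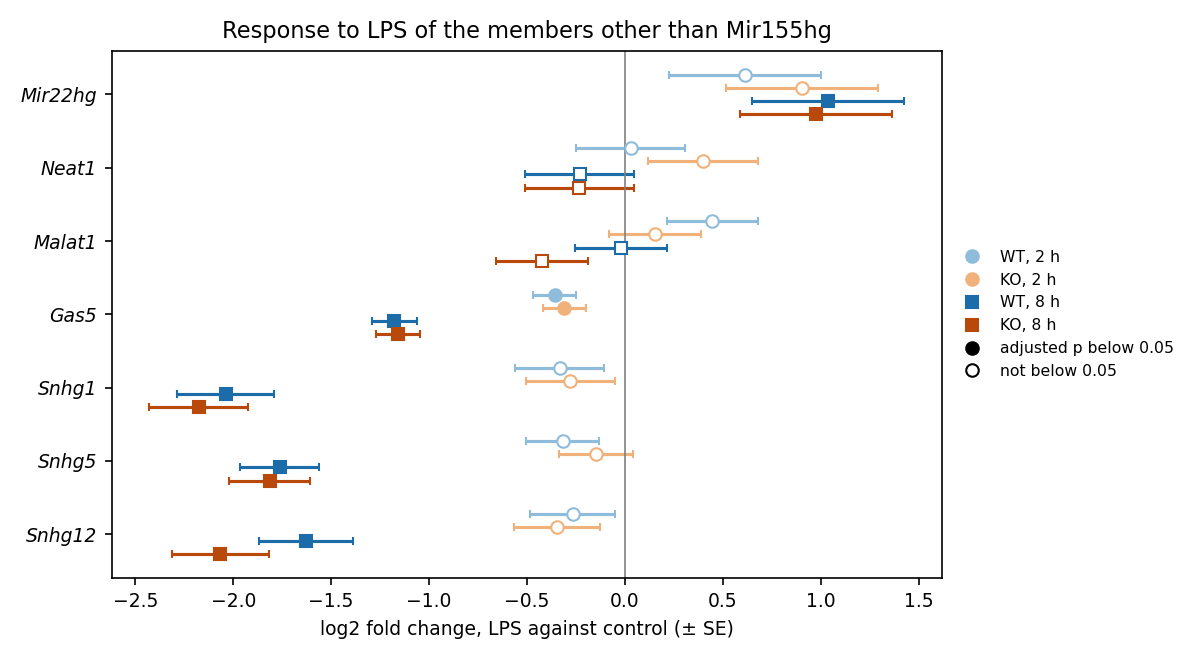
Log2 fold change of LPS against control (horizontal axis, with SE) of the 7 members other than Mir155hg, at 2 h (circles) and 8 h (squares) under the WT label (blue) and the KO label (orange), with paler colours for 2 h; filled symbols have an adjusted p below 0.05 (edgeR). The snoRNA hosts lie between -1.16 and -2.18 at 8 h, Mir22hg at 1.04 and 0.98, and Neat1 and Malat1 have no filled symbol.

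With all libraries pooled, no member passed the test between the genotype labels. KO-labelled against WT-labelled cells gave 0 called members in controls, at 2 h and at 8 h, where 0.147%, 0.0232% and 0.1% of all genes were called, and the difference between their LPS responses gave 0 at both times, where 0% of genes were called (edgeR). The log2 differences lay between -0.38 ± 0.19 (SE) for Snhg5 and 0.15 ± 0.23 for Malat1 in controls, between -0.21 and 0.09 at 2 h, and between -0.43 ± 0.22 for Snhg5 and -0.06 ± 0.11 for Gas5 at 8 h. Before adjustment edgeR gave 1 member under 0.05 in controls, Snhg5, and 0 members at 2 h and at 8 h. At 8 h all 8 values were negative, and all KO-labelled libraries of Malat1 lay below all WT-labelled ones, without passing the test (-0.25 ± 0.24, adjusted p = 0.831, edgeR). The share of all genes separated in this way between the labels was not computed. DESeq2's Wald test and limma-voom also called 0 members in the 3 comparisons of labels.

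Within the library sets the comparison of labels at 8 h gave different counts. In set B alone 5 members were lower under the KO label, where 31.5% of the genes tested were called and 13.3% called lower. Their log2 differences were -0.97 ± 0.31 (SE) for Neat1 (adjusted p = 0.0171, edgeR), -0.59 ± 0.09 for Mir155hg (adjusted p = 2.91e-05), -0.58 ± 0.18 for Snhg5 (adjusted p = 0.0155), -0.54 ± 0.17 for Mir22hg (adjusted p = 0.0179) and -0.47 ± 0.15 for Snhg1 (adjusted p = 0.0366). In set A alone no member was called, where 0.0469% of genes were called, and the values ran from -0.31 ± 0.36 for Snhg5 to 0.15 ± 0.24 for Neat1 (edgeR). Set B alone also had Snhg12 higher in KO-labelled controls, by 0.59 ± 0.16 (adjusted p = 0.0174, edgeR; background 10.5%), and a larger 8 h fall of Snhg1 and Snhg12 under the KO label, with differences in response of -0.58 ± 0.18 and -0.98 ± 0.32 (adjusted p = 0.0276 and 0.0334; background 16.6%). For LPS at 2 h, set A alone called 5 members under the WT label, Mir155hg and Mir22hg higher and Gas5, Snhg1 and Snhg5 lower (background 38.4%). Set B alone called 5 under the KO label, Mir155hg, Mir22hg and Malat1 higher and Gas5 and Snhg12 lower (background 48%). Each set holds 3 libraries of each group, and whether the label effect differs between the sets was not tested.

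The sets themselves differed for 4 of the 8 members, where 58.4% of all genes were called, 29.4% higher and 29% lower in set B. The sets were found from the counts of the genes other than the members. That share is therefore not independent of the split and is no neutral background for the members. The members' p-values between the sets come from the same libraries and were adjusted over those genes. They are not independent of the split either, and the differences are given as a description. Averaged over the groups, set B was lower than set A, with log2 differences of -1.14 ± 0.11 for Mir22hg (SE, adjusted p = 3.97e-10, edgeR), -0.57 ± 0.10 for Malat1 (adjusted p = 5.92e-06) and -0.33 ± 0.10 for Mir155hg (adjusted p = 0.00588). Snhg1 was higher in set B, by 0.50 ± 0.11 (adjusted p = 0.000236). For Gas5 and Snhg5 the differences were -0.09 ± 0.06 and 0.04 ± 0.11, for Neat1 -0.32 ± 0.15 (adjusted p = 0.0698) and for Snhg12 0.26 ± 0.13 (adjusted p = 0.0791). Neat1 passed, at -0.36 to -0.42, without WT-labelled 2 h replicate 1, KO-labelled control replicate 1 or control replicate 5 of either label. Snhg12 passed, at 0.29 to 0.31, without WT-labelled 8 h replicate 1, control replicate 2 or 3, or 2 h replicate 2, or KO-labelled 8 h replicate 6.

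The response to LPS differed between the sets for 3 members, in a fit with 1 mean per group and set. Mir22hg rose by 0.65 in set A and by 1.76 in set B at 8 h, a difference of 1.12 ± 0.18 (SE, adjusted p = 1.24e-05, edgeR). Malat1 at 8 h stood at -0.50 in set A, which passed (adjusted p = 0.00172), but at 0.18 in set B (adjusted p = 0.252), a difference of 0.68 ± 0.20 (adjusted p = 0.00860). Differences at 8 h were called for 32.3% of all genes and at 2 h for 14.6%. At 2 h the member called was Snhg5, lower by LPS in set A, at -0.60 (adjusted p = 0.00201), and at 0.11 (adjusted p = 0.580) in set B, a difference of 0.71 ± 0.22 (adjusted p = 0.0298). The 8 h fall of the snoRNA hosts was of like size in both sets: for Snhg1 it was -2.16 and -2.06, for Snhg5 -1.81 and -1.75, for Snhg12 -1.66 and -1.97 and for Gas5 -1.09 and -1.25, with adjusted p for the differences from 0.386 to 0.894.

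**Figure D5:**
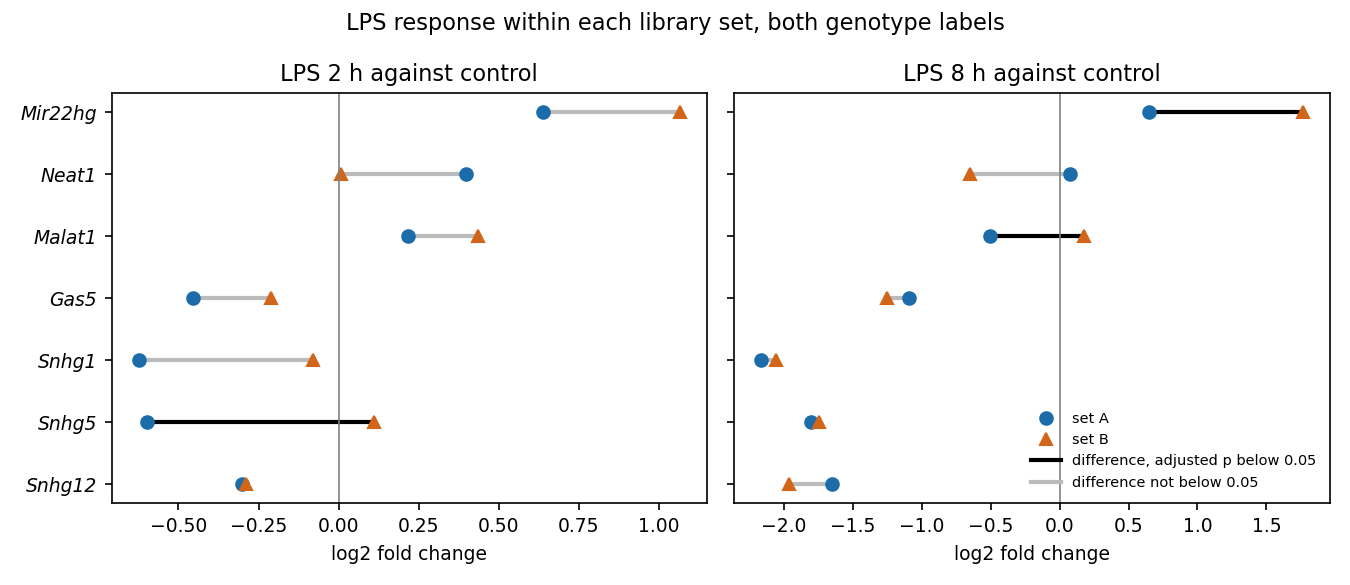
Log2 fold change of LPS against control (horizontal axes) within set A (circles) and set B (triangles), averaged over both genotype labels, at 2 h (left) and 8 h (right) for the 7 members other than Mir155hg; a black line marks a difference between sets with an adjusted p below 0.05 (edgeR). Black lines join the points of Snhg5 at 2 h and of Mir22hg and Malat1 at 8 h.

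Other genes of the same pathways were read from lists, whose counts at 8 h stand beside 34.2% of all genes higher and 37% lower under the WT label and 34.9% and 37.2% under the KO label. At 2 h the shares of all genes were 20.3% and 17.7%, and 18.9% and 16.4%. Nothing particular to a list is read from a count near these shares. Of 17 other snoRNA host RNAs, 14 were in the files and 11 were tested: at 8 h 8 fell and 1 rose in WT-labelled cells, and 7 fell and 1 rose in KO-labelled cells, with medians of -0.73 and -0.97. Snhg11 fell, with log2 changes of -1.44 ± 0.44 (SE, adjusted p = 0.00400, edgeR) and -2.06 ± 0.47 (adjusted p = 0.000235). The host that rose was Zfas1, at 1.47 ± 0.17 (adjusted p = 1.15e-09) and 1.19 ± 0.16 (adjusted p = 6.50e-08), and it was already up at 2 h, at 1.93 and 1.33. Among 7 coding genes that carry snoRNAs, 4 fell and 1 rose at 8 h under the WT label and 5 fell and 1 rose under the KO label. The core snoRNP protein Nop56 fell, at -1.54 and -1.59, and the chaperone Hspa8 rose by 0.58 and 0.42. Of 18 tested genes of snoRNP assembly and ribosome production, 12 fell and 0 rose at 8 h under the WT label and 13 fell and 0 rose under the KO label. The pseudouridine synthase Dkc1 fell under both labels, at -1.94 ± 0.29 (adjusted p = 4.17e-07) and -1.99 ± 0.29 (adjusted p = 2.82e-07), and the RNA polymerase I subunit Polr1b was at -1.92 ± 0.21 (adjusted p = 7.30e-10) and -2.43 ± 0.22 (adjusted p = 5.80e-12). At 2 h 1 of these 18 fell under the WT label and 0 changed under the KO label.

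Of 14 nonsense-mediated decay factors, 9 rose and 3 fell at 8 h under both labels, where 71.2% and 72.1% of all genes were called. Upf3b, which links exon junctions to the decay machinery, fell, at -1.27 and -1.30 (adjusted p = 4.88e-10 and 2.62e-10, edgeR). Of 14 paraspeckle proteins, 2 rose and 4 fell at 8 h under both labels. Nono rose by 1.53 ± 0.08 (SE, adjusted p = 2.38e-18) and 1.61 ± 0.08 (adjusted p = 5.28e-19), and Pspc1, another core protein of these bodies, fell, at -0.89 and -0.99. At 2 h 6 of them rose and 0 fell under both labels, among them Sfpq at 0.73 and 0.72. Of 15 nuclear speckle genes, 6 rose and 4 fell under the WT label at 8 h and 5 rose and 5 fell under the KO label, with Srrm2 up by 0.66 and 0.64 and Srsf1 at -0.93 and -0.97.

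The NF-kB and AP-1 subunits were listed as factors that turn on Mir155hg, and their binding to its promoter was not measured. Of these 12, 9 rose and 2 fell at 2 h under both labels, where 37.9% and 35.3% of all genes were called. At 8 h 7 rose and 4 fell under both labels, where 71.2% and 72.1% of all genes were called. Nfkb2 rose by 3.42 and 3.12 at 2 h and by 4.63 and 4.39 at 8 h, and Jun fell, at -1.79 and -1.43, at 2 h (adjusted p from 1.62e-27 to 6.89e-06 for these values, edgeR). Of 16 genes that process or load microRNAs, 7 rose and 9 fell at 8 h under the WT label and 7 rose and 7 fell under the KO label. Ago3 rose by 1.66 and 1.27, and Dgcr8, the partner of Drosha, fell, at -0.91 and -1.12. Of 3 other microRNA hosts tested, Mir17hg, which carries the miR-17-92 cluster, rose at 2 h by 0.82 ± 0.26 (adjusted p = 0.0112) and 1.26 ± 0.26 (adjusted p = 0.000228) and was lower than control at 8 h, at -0.78 and -1.01, while Mir99ahg was higher at 8 h by 2.02 and 1.66. Of 10 other nuclear and regulatory long noncoding RNAs tested, 5 rose and 4 fell at 8 h under both labels, with Ptgs2os2, encoded beside Ptgs2, at 5.79 and 5.89 and Pvt1, beside Myc, at -2.68 and -2.69.

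Genes named as miR-155 targets did not move in 1 direction. Of 28 tested, 16 rose and 7 fell at 8 h under both labels, with medians of 0.60 and 0.52 beside -0.06 for all genes, of which 71.2% and 72.1% were called. Socs1, the inhibitor of cytokine receptor signalling named in the series title, rose by 5.74 ± 0.31 (SE, adjusted p = 8.53e-18, edgeR) and 5.76 ± 0.30 (adjusted p = 5.09e-18). Its level went from 1.32 ± 0.167 CPM (SD, n = 6) to 71.5 ± 9.96 CPM under the WT label. The lipid phosphatase gene Inpp5d fell under both labels, at -1.80 ± 0.11 (adjusted p = 1.40e-16) and -1.94 ± 0.11 (adjusted p = 1.81e-17). The annotated transcript end of Socs1 holds 1 match to the miR-155-5p seed, at chr16:10784203-10784224 of mm10 on the minus strand, shown because Socs1 rose while the host of miR-155 rose, with the bases complementary to the seed in capitals.
Socs1 site: cgctgtgccgcAGCATTAagtg
Across genes, 451 tested genes held such a match followed by A after their stop codon, and 11244 did not. Any genes with the match but without that A were left among the 11244. For the 451 and the 11244 genes, median log2 changes at 8 h were -0.09 and -0.06 under the WT label. Under the KO label they were -0.03 and -0.06. Of these genes, 38.6% and 38% were lower at 8 h under the WT label. These medians were not tested, and the level of miR-155 itself was not measured.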

How the data were processed

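RNA of 36 libraries was sequenced, per the labels. The deposited values are raw gene counts, 1 file per library, which the authors obtained with HTSeq against mm10, per the submitters' processing notes. Aligner, annotation, HTSeq version, library selection and strandedness were not given in the sources used here. Of 54232 identifiers, 54165 were named with GENCODE M21, and 67 were not. Genes with few counts were removed with filterByExpr (12957 left), libraries were scaled by TMM, and 1 mean per group was fitted with the quasi-likelihood model of edgeR 4.0.16 (R 4.3.3). Genes with an adjusted p below 0.05 over all genes were called. CPM are counts over effective library size, and standard errors come from the F statistic. The script was tested on simulated data.

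The members and gene lists were chosen with earlier results of these data known. Named genes were the 8 members, up to 2 called genes per list and direction by size in each comparison of LPS with control, the 3 genes most correlated with each member among those whose mean log2 CPM reached 2, and Nos1 and Tnf. Some of these are given as counts only, and some are not reported here. The alternatives were DESeq2 1.42.0 and its size factors, library totals, other count filters, limma-voom (limma 3.58.1), the compared groups alone, libraries left out, and the library sets. The test of the LPS response between sets was added after seeing the data. Mature microRNAs and promoter windows are from RefSeq (GRCm38.p6). The Socs1 site is from GENCODE M21.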

Additional observations from a re-analysis of the deposited data

Results flagged for a closer look

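Malat1 in WT-labelled cells at 2 h had 1 library, replicate 1, at 298 CPM, while the next highest of the 6 stood at 167 CPM. The gap was 0.708 of the range of the group, above Dixon's 95% limit for groups of this size. It was the single such value in 48 groups of member and condition, and chance alone gives about 1 in 20.

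The LPS response differed between the library sets for 1 member at 2 h and 2 at 8 h, as tested by the difference itself (edgeR). Among all genes 14.6% and 32.3% were called in the same tests, beside 1 of 8 and 2 of 8 members. Set B minus set A was 0.71 for Snhg5 at 2 h (adjusted p = 0.0298), 1.12 for Mir22hg at 8 h (adjusted p = 1.24e-05) and 0.68 for Malat1 at 8 h (adjusted p = 0.00860). The sets are not in the labels, and what separates them was not tested.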

How the results depend on the processing

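Over 12 alternatives and the omission of each of 36 libraries in turn, 4453 of 4559 member values kept their side of the threshold, 104 crossed it in the same direction and 2 reversed; a further 153 changed sign while not called. The reversals were both in set B alone, Malat1 in WT-labelled cells at 8 h against control, at 0.42 (adjusted p = 0.0246, edgeR), and Mir155hg in KO-labelled cells from 2 h to 8 h, at 0.23 (adjusted p = 0.0381). The number of members called at 2 h under the WT label, 2, became 5 with library totals alone (58.8% of all genes called), 1 without the libraries with muscle markers (32.1%), 4 with the library set as a term (46.5%) and 5 in set A alone (38.4%), against 37.9% as reported. The number under the KO label, 2, became 4 with library totals alone (56.1%), 1 without a count filter (14.4%) and 5 in set B alone (48%), against 35.3%. It ranged from 1 to 3 when 1 library was left out (32.3% to 36%), with 1 called without KO-labelled control replicate 5 or 2 h replicate 6. In set B alone KO-labelled and WT-labelled cells differed for 1 member in controls (10.5%) and 5 at 8 h (31.5%), and their 8 h responses for 2 (16.6%), against 0 in each with all libraries. The cause of these changes was not tested. At 8 h against control 6 to 7 members were called under each label over the 12 alternatives. The share of all genes called there ran from 36.4% to 85.2% under the WT label and from 36% to 85.6% under the KO label. Over the omissions 6 members were called under the WT label (69.3% to 71.9% of genes) and 5 to 6 under the KO label (70.2% to 72.5%). For the library set difference some alternatives were not run. They are those that use the sets or the groups compared alone, or leave out the libraries with muscle markers or the BMDM label. No paired analysis was run because the labels give no replicate numbers and do not say which libraries belong together across groups. All tests treat the libraries as unpaired. The replicate numbers used here follow accession order. Whether they mark shared animals or cultures was not tested. The few counts of Mir155hg in controls and of Snhg1 and Snhg12 at 8 h limit their precision.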

Other observations

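Xist, the RNA that coats the inactive X chromosome and a gene of the list of nuclear long noncoding RNAs, was present in replicate 1 of each WT-labelled group, at 370 CPM in the control, 464 CPM at 2 h and 534 CPM at 8 h. The other 33 libraries held 0 or 1 counts of it. The labels do not say whether these 3 libraries came from 1 animal or culture.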
